A study of Mus musculus with 21 samples.

Results

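The genes of mitochondrial oxidative phosphorylation were followed in mouse lung at 2 times after a fungal extract was placed in the airway. They were taken as every gene whose single symbol in the array's annotation begins with Nduf, Uqcr, Atp5, Sdha, Sdhb, Sdhc, Sdhd, Cox4, Cox5, Cox6, Cox7 or Cox8, and each gene was read from its brightest probe set. The rule found 87 genes with 160 probe sets, of 12393 genes in all. They comprise 34 genes of complex I, 4 of complex II, 8 of complex III, 16 of complex IV, 17 of the ATP synthase, and 8 assembly factors that carry the same prefixes (5 for complex I and 3 for complex II). The rule used no measured value.

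On 21 arrays the study measured RNA of entire left lungs, taken from BALB/c females aged 8 weeks. Mice received a single intratracheal aspiration of 20 µg Metarhizium anisopliae crude antigen (MACA, an extract of an insect-killing fungus used as a biological pesticide) in 50 µl Hank's balanced salt solution (HBSS), of bovine serum albumin (BSA) at that dose as a protein control, or of HBSS alone. Lungs were taken after 3 h (4 MACA, 3 BSA and 3 HBSS arrays) or 12 h (3 MACA, 4 BSA and 4 HBSS arrays). The comparisons ask how the antigen differed from the vehicle and from an unrelated protein, and how each response moved between the times. MACA is a mixture and not 1 purified allergen, each mouse was exposed once, and HBSS is shared by all groups. The labels call the arrays biological replicates. The tissue is a mixture of cell types, so fewer cells of a type and less RNA per cell cannot be told apart in any value below. All 9 alveolar epithelial markers on the array were above noise in all 21 lungs.

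Oxidative phosphorylation is the route by which mitochondria turn the oxidation of food into ATP. Complex I takes electrons from NADH and complex II from succinate, complex III passes them to cytochrome c, and complex IV, cytochrome c oxidase, gives them to oxygen. Complexes I, III and IV pump protons, and the ATP synthase uses the return flow of protons to make ATP. Nearly all subunits are encoded in the nucleus, and several small subunits of complex IV exist as a form found in most tissues and a form found mainly in heart and skeletal muscle (Cox6a1 and Cox6a2, Cox7a2 and Cox7a1, Cox8a and Cox8b), with Cox6b2 best known from testis. Nuclear respiratory factor 1 (NRF1) and the ETS factor GABPA are textbook regulators of the subunit genes.

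The promoters of 5 members are shown because the muscle forms of complex IV fell at 12 h in lungs where their widespread partners did not pass the test, and because Atp5o was lower than HBSS at 3 h and higher at 12 h. RefSeq sequences (mouse build GRCm38.p6) were matched for 73 of the 87 genes, 14 were not in the promoter table, and the matched genes gave 78 promoters among 32851. Each sequence runs 5′ to 3′ on the gene's strand from 250 bases before to 30 bases after the annotated start. Capitals mark matches to the motifs of NRF1, of ETS factors or of the TATA box, whose letters are given after the sequences, on either strand.
Cox6a1, widespread form, chr5:115348929-115349208, minus strand: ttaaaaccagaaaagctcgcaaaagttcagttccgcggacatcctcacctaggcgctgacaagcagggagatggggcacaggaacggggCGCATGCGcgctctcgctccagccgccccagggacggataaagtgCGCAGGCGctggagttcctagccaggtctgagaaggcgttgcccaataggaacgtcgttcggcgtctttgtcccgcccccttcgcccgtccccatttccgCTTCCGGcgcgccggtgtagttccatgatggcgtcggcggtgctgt
Cox8a, widespread form, chr19:7217587-7217866, minus strand: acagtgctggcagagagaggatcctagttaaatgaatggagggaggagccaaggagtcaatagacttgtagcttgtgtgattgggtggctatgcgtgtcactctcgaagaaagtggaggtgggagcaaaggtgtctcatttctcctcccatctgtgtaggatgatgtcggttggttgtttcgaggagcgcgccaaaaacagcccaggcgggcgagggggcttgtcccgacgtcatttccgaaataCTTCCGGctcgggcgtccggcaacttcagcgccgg
Cox7a1, muscle form, chr7:30183921-30184200, plus strand: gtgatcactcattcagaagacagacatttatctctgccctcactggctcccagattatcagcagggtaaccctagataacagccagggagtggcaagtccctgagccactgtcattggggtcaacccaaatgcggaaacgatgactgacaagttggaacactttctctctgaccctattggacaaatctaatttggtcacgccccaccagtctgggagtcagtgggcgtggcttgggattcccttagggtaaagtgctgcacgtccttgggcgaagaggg
Cox8b, muscle form, chr7:140900417-140900696, minus strand: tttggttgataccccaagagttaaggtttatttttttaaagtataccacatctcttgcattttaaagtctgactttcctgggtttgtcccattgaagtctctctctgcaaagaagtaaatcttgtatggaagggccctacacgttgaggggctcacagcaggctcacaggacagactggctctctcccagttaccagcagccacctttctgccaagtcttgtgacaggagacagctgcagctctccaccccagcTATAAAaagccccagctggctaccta
Atp5o, chr16:91931601-91931880, minus strand: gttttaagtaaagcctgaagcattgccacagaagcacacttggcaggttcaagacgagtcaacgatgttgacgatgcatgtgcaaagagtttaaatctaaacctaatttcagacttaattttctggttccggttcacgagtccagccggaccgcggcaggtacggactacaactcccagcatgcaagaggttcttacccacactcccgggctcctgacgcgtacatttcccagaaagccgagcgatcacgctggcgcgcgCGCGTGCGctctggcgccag

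In these windows Cox6a1 held 3 marked matches (NRF1 at 2 places and an ETS match at 1), Cox8a held 1 ETS match, Atp5o held 1 NRF1 match, Cox8b held 1 TATA box and Cox7a1 held 0 of the 3 motifs. The 300-base windows of Cox7a2, the widespread partner of Cox7a1, and of the widespread subunits Cox5a and Cox5b also held 0 of the 3, so these letters do not separate the widespread from the muscle forms. Over the 300 bases in the table, Cox6a1 had 32 CpG dinucleotides, Cox8a 19 and Atp5o 22, against 7 in Cox7a1 and 2 in Cox8b. The NRF1 letters CGCANGCG stood in 29 of the 78 promoters of these genes (37.2%), against 8.21% of all promoters. The promoters of these genes were also richer in CpG (median 19.5 against 7 per window) and GC (58.8% against 52.7%), and the NRF1 letters contain CpG, so the shares are not matched for base composition. The ETS letters CCGGAAG stood in 25.6% against 8.86%, and the YY1 letters AAGATGGCG in 7.69% against 1.4%. The letters TCAAGGTCA (estrogen-related receptors) stood in 2.56% against 0.423%, GGGCGG (SP1) in 44.9% against 35.7%, TATTTATA (MEF2) in 0 of 78 against 1.7%, CANNTG (E-box) in 67.9% against 72.3%, and TATAAA in 10.3% against 13.6%. All motifs were searched on both strands, E-box matches may overlap others, and a match describes letters and not binding.

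The deposited intensities were unscaled, with array medians from 93.0 to 287, a ratio of 3.08, and 9.37% to 11.1% of values lay below 0. After quantile normalization the values are given as log2(intensity + 16), a scale that understates changes of dim genes, and every difference below is on that log2 scale. A gene is called when its limma p, adjusted by Benjamini-Hochberg over all 12393 genes, is under 0.05. A hybridization control that was spiked into each sample has a pair of probe sets, and their ratio fell into a high range on 13 arrays (1.62 to 1.91) and a low range on 8 (0.939 to 1.22). The low technical set is made up of the 4 HBSS arrays at 12 h with replicates 3 and 4 of BSA at 12 h and of MACA at 3 h, while all 3 MACA 12 h arrays are in the high set. The MACA and HBSS arrays at 12 h therefore cannot be told apart from this technical difference by themselves. A second fit that includes a term for this set (the set term), read from the groups that span both sets, is given beside many of the results. The low-set arrays of those groups had ratios of 0.939 to 1.11, and the HBSS 12 h arrays had 1.13 to 1.22. The term carries the shift of the former over to the latter, and whether both share that shift was not tested. For 1 mitochondrially encoded transcript, ND5, the former read 12.06 to 12.29 and the latter 12.74 to 12.93. High-set arrays read 12.53 to 13.02 for ND5.

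85 of the 87 genes were above the noise level (log2 5.83) on every array. The exceptions were Cox7c, a small complex IV subunit, above noise on 17 arrays, and Ndufb1, an accessory subunit of complex I, on 19. The members varied little within groups: the median within-group SD was 0.113, against 0.182 for all genes and 0.135 for the 3931 genes with a mean above 9. The median range of the 6 group means was 0.328 over the members and 0.436 over complex IV, against 0.460 over all genes.

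At 3 h after MACA, the members lay slightly below HBSS as a set of small differences, and few passed the test. 4 of 87 were lower and 0 higher (4.60%), against a background of 8.12% of all genes called (4.84% higher and 3.28% lower). The share called in either direction was thus below the background, while the share called lower was above the 3.28% of all genes. No difference between these shares was tested. The median difference of the members was -0.12, against -0.02 for all genes, and 68 of 87 differences were negative. For complex I the median was -0.15 with 32 of 34 differences below 0, for complex IV -0.11 with 12 of 16, for the ATP synthase -0.06 with 11 of 17, and for complex III -0.03 with 4 of 8. No member differed by 0.5 or more. With the set term 0 were higher and 11 lower, with median scaling 0 and 6, and without scaling 0 and 0. Over all 12393 genes the set term gave 613 higher and 510 lower, median scaling 555 and 500, and no scaling 128 and 12.

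Sdhaf4, an assembly factor that guards the flavoprotein subunit of complex II, read 8.75, 8.64, 8.46 and 8.91 in the MACA lungs at 3 h against 9.38, 8.9996 and 9.12 in HBSS. All MACA values lay below all HBSS values, and the difference was -0.48 ± 0.13 (SE, n = 4 and 3, limma adjusted p = 0.0279). Ndufc2, a membrane-arm subunit of complex I, read 11.34, 11.30, 11.10 and 10.98 against 11.50, 11.47 and 11.61, a difference of -0.35 ± 0.08 (adjusted p = 0.0167). Atp5o, the subunit that joins the stalk of the ATP synthase to its catalytic head, read 10.89, 11.02, 10.85 and 10.71 against 11.20, 11.11 and 11.30, a difference of -0.34 ± 0.09 (adjusted p = 0.0236). Cox7a2, the widespread form of complex IV subunit VIIa, read 12.22, 12.16, 12.07 and 12.02 against 12.33, 12.36 and 12.42, a difference of -0.25 ± 0.06 (adjusted p = 0.0173). The 4 genes thus fell with no overlap, by small amounts. Leaving out HBSS 3 h replicate 3 ended all 4 calls, and MACA 3 h replicate 4 ended those of Ndufc2, Atp5o and Cox7a2, HBSS 3 h replicate 1 those of Sdhaf4 and Atp5o, and MACA 3 h replicate 2 or 3 that of Sdhaf4. The highest adjusted p in these fits was 0.140 for Sdhaf4, 0.0835 for Ndufc2, 0.108 for Atp5o and 0.0805 for Cox7a2. With the set term Atp5o lost its call (adjusted p = 0.0633), and within the high technical set all 4 did (adjusted p from 0.0763 to 0.168), with differences of -0.48 for Sdhaf4, -0.21 for Ndufc2, -0.25 for Atp5o and -0.18 for Cox7a2. Median scaling ended the Cox7a2 call (0.0604), and the other probe set of Cox7a2 gave 0.02.

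**Figure D1:**
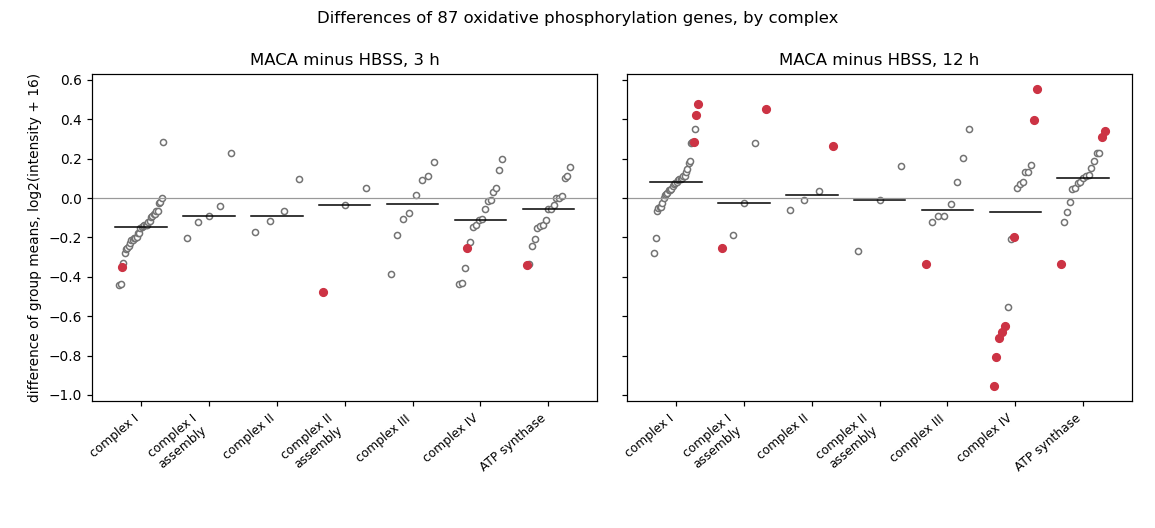
Log2 difference between MACA and HBSS lungs for each of the 87 genes at 3 h and at 12 h, by complex. Each point is 1 gene, filled red where the limma adjusted p is under 0.05 and open otherwise, and the line is the median of the complex. Complex I sits mostly below 0 at 3 h (median -0.15) and mostly above 0 at 12 h (median 0.08), and complex IV spreads to both sides at 12 h.

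At 12 h after MACA, members moved in both directions. 9 of 87 were higher and 9 lower than HBSS (20.7%), close to the background of 20.2% (10.2% higher and 10.1% lower) over all genes. By complex, complex IV had 2 higher and 6 lower of 16, complex I had 3 higher and 0 lower of 34, the ATP synthase had 2 higher and 1 lower of 17, complex II had 1 higher of 4, complex III had 1 lower of 8, and the assembly factors of complex I had 1 in each direction of 5. No difference between these shares was tested. The median difference was 0.07 over the members and 0.00 over all genes, with 56 of 87 positive, and 27 of 34 complex I genes were above 0 (median 0.08). With median scaling the split was 10 higher and 6 lower, against 1211 and 1033 of all 12393 genes. With the set term it was 12 and 3 (8 of the 18 called genes kept their call), against 1026 and 982 of all genes. With the mean of all probe sets of a gene it was 2 higher and 10 lower (9 of the 18 kept), where 2368 of all genes were called. Without scaling it was 0 and 60, against 162 and 5412 of all genes. The median of all genes itself lay at -0.57 there, so directions here are relative to the bulk of genes. Without MACA 12 h replicate 2 only 9 of the 87 were called, with 1366 of all genes.

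In complex I, Ndufb7, an accessory subunit of the membrane arm that faces the intermembrane space, rose at 12 h. Its values were 11.44, 11.64 and 11.65 in MACA against 11.14, 10.88, 11.13 and 11.23 in HBSS, with no overlap, and the difference was 0.48 ± 0.09 (SE, n = 3 and 4, adjusted p = 0.00126). Ndufs8, which carries iron-sulfur clusters in the arm that leads electrons to ubiquinone, read 11.67, 11.84 and 11.71 against 11.40, 11.02, 11.50 and 11.36, a difference of 0.42 ± 0.11 (adjusted p = 0.0128). Ndufa3, a small membrane-arm subunit, read 11.74, 11.77 and 11.95 against 11.46, 11.49, 11.66 and 11.54, a difference of 0.28 ± 0.09 (adjusted p = 0.0430). On a linear scale these rises ran from 1.22-fold for Ndufa3 to 1.39-fold for Ndufb7. The Ndufb7 call held in every fit that left out an array. The Ndufs8 call was lost without MACA 12 h replicate 2 (adjusted p = 0.0707), and the Ndufa3 call was lost without any of 6 of the 7 arrays (up to 0.173) and with the set term (0.06, adjusted p = 0.764). The subunits that carry the entry point and the electron path, Ndufs1 and Ndufv1, differed by 0.10 (95% interval -0.05 to 0.25) and 0.04 (-0.25 to 0.33) and were not called. Ndufa4, counted here by its symbol and now regarded as a complex IV subunit, differed by 0.28 (0.02 to 0.55, adjusted p = 0.121).

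The complex I assembly factors split. Ndufaf4 read 8.34, 8.84 and 8.56 in MACA at 12 h against 8.06, 8.24, 8.18 and 8.04 in HBSS, a rise of 0.45 ± 0.11 (adjusted p = 0.00791, and 0.0622 without MACA 12 h replicate 2). With the set term the rise of Ndufaf4 was 0.27 and lost its call (adjusted p = 0.192). Ndufaf1 read 8.08, 8.23 and 8.13 against 8.35, 8.42, 8.37 and 8.46, a fall with a difference of -0.26 ± 0.07 (adjusted p = 0.0185, up to 0.0778 without MACA 12 h replicate 1 or 3, and 0.0179 with the set term). Neither pair of groups overlapped, and both proteins act in building complex I.

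In complex II and complex III most genes stayed near their HBSS values. Sdhd, a membrane anchor of complex II, read 10.34, 10.40 and 10.40 in MACA at 12 h against 10.07, 10.01, 10.25 and 10.14, a difference of 0.26 ± 0.08 (adjusted p = 0.0373). Its other probe set gave -0.51, the mean over its probe sets turned to -0.12, and the call was lost without any of 6 of the 7 arrays (up to 0.116) and with the set term (0.114). The catalytic subunits Sdha and Sdhb differed by -0.06 (95% interval -0.21 to 0.09) and 0.04 (-0.12 to 0.20). Uqcrc2, a core protein of complex III, read 10.59, 10.86 and 10.68 against 11.05, 11.21, 10.99 and 10.92, a difference of -0.34 ± 0.11 (adjusted p = 0.0420, up to 0.154 without any of 5 of the 7 arrays, 0.535 at -0.14 with the set term, and 0.123 with median scaling). Its partner Uqcrc1 differed by -0.09 (-0.36 to 0.18), and the Rieske protein Uqcrfs1 by 0.20 (0.04 to 0.36, adjusted p = 0.0650).

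**Figure D2:**
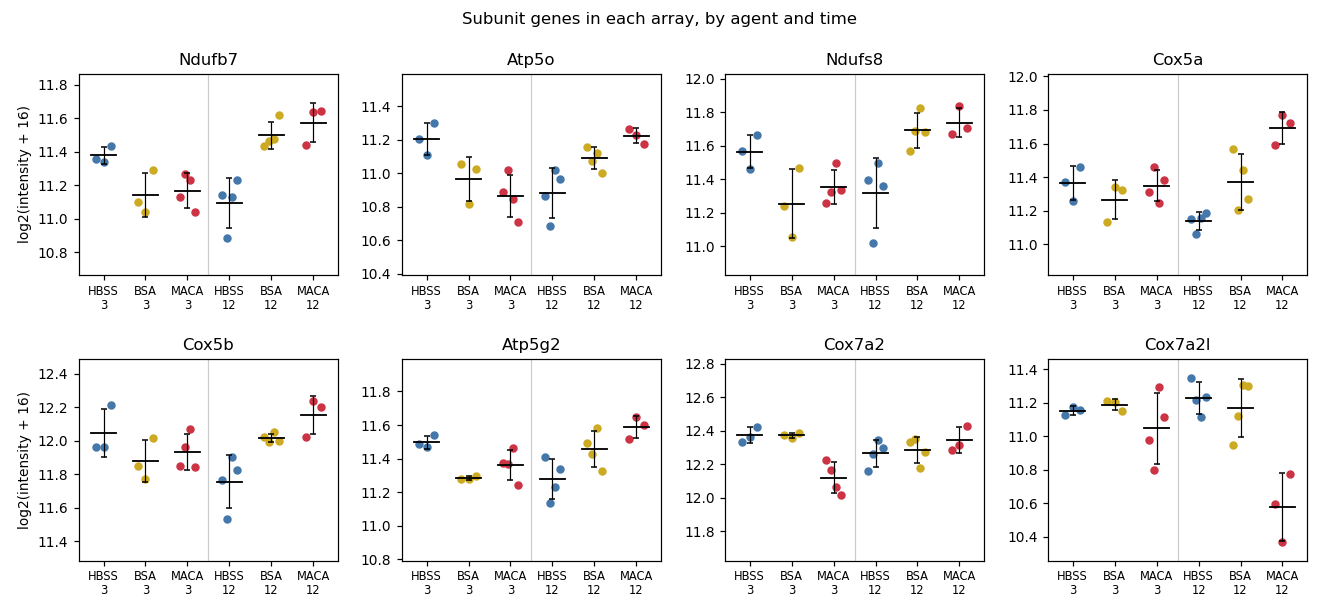
Log2(intensity + 16) of 8 subunit genes in each of the 21 arrays, by agent and time in hours. Points are arrays, the line is the group mean and the bar its SD. Ndufb7, Atp5o, Cox5a and Cox5b have their MACA 12 h arrays above all HBSS 12 h arrays, and Cox7a2l has its MACA 12 h arrays (10.37 to 10.77) below all others of that time.

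In complex IV, the subunits Cox5a and Cox5b, which surround the catalytic core of the enzyme in all tissues, rose at 12 h. Cox5a read 11.59, 11.77 and 11.72 in MACA against 11.15, 11.06, 11.15 and 11.18 in HBSS, a difference of 0.55 ± 0.09 (adjusted p = 4.15e-04, and 0.00981 with the set term). Cox5b read 12.02, 12.24 and 12.20 against 11.76, 11.53, 11.90 and 11.83, a difference of 0.40 ± 0.09 (adjusted p = 0.00633, and 0.0328 with the set term). The groups did not overlap for either gene, and both calls held in every fit that left out an array. Cox5a rested on the brightest of 3 probe sets, and the other probe sets of Cox5a gave -0.05 and 0.19. Cox4i1, the widespread form of subunit IV, lay the other way, at 12.00, 12.05 and 12.06 against 12.32, 12.19, 12.28 and 12.15. Its difference was -0.20 ± 0.06 (adjusted p = 0.0404), lost without any of 6 of the 7 arrays (up to 0.122) with the set term (-0.03, adjusted p = 0.841) and with median scaling (0.615). Cox4i2, the form of subunit IV known from lung, differed by 0.07 (95% interval -0.27 to 0.41).

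4 muscle or testis forms of complex IV subunits fell at 12 h while their widespread partners did not pass the test. Cox6a2 read 8.85, 8.17 and 8.77 in MACA against 9.41, 9.07, 8.99 and 9.64 in HBSS, a difference of -0.68 ± 0.20 (adjusted p = 0.0259). Cox7a1 read 7.13, 7.02 and 7.33 against 7.70, 7.89, 7.84 and 8.44, a difference of -0.81 ± 0.21 (adjusted p = 0.0136). In both genes every MACA lung lay below every HBSS lung. Cox8b read 7.63, 6.84 and 7.02 against 7.89, 7.49, 7.96 and 8.16, where 1 MACA array lay within the HBSS range, and the difference was -0.71 ± 0.23 (adjusted p = 0.0376). Cox6b2 read 7.98, 7.35 and 7.81 against 8.50, 8.55, 8.78 and 8.85, with no overlap, and the difference was -0.96 ± 0.15 (adjusted p = 5.55e-04).

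Their partners differed by 0.17 for Cox6a1 (95% interval -0.02 to 0.35), 0.08 for Cox7a2 (-0.05 to 0.21), 0.13 for Cox8a (-0.17 to 0.43) and 0.13 for Cox6b1 (0.01 to 0.25, adjusted p = 0.111). Cox8c, the testis form of subunit VIII, differed by 0.05 (-0.34 to 0.44). The 95% intervals of Cox6a1, Cox7a2 and Cox6b1 thus end above -0.1 at their low side. At 3 h Cox6b2 read 8.27, 8.30, 8.52 and 8.55 in MACA against 8.82, 8.80 and 8.92, without overlap, but did not pass the test (adjusted p = 0.0919). With the set term Cox6b2 kept its call (adjusted p = 0.0247), and Cox6a2 (-0.24, adjusted p = 0.535), Cox7a1 (-0.43, adjusted p = 0.296) and Cox8b (-0.30, adjusted p = 0.529) lost theirs. Cox7a1 also lost its call without MACA 12 h replicate 2 (0.0675), Cox6a2 without that array or HBSS 12 h replicate 1 or 4 (up to 0.171), and Cox8b without any of 5 of the 7 arrays (up to 0.185).

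**Figure D3:**
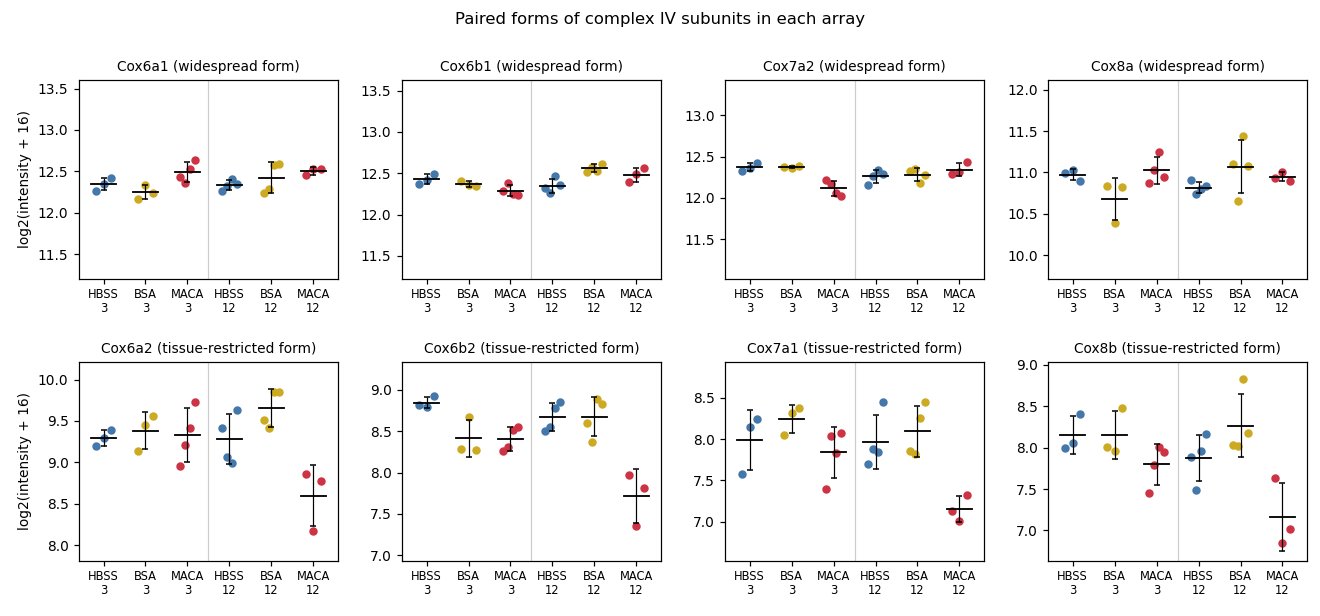
Log2(intensity + 16) of the muscle or testis forms of complex IV subunits and of their widespread partners in each array, by agent and time in hours. Points are arrays, the line is the group mean and the bar its SD. MACA 12 h arrays are the lowest of their time for Cox6a2, Cox6b2 and Cox7a1 (Cox8b overlaps HBSS), and the partner genes did not pass the test at 12 h.

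Cox7a2l, also known as supercomplex assembly factor 1, which links complex III with complex IV, fell as well. It read 10.59, 10.37 and 10.77 in MACA at 12 h against 11.35, 11.21, 11.12 and 11.23 in HBSS, with no overlap, and the difference was -0.65 ± 0.11 (adjusted p = 9.23e-04). The other probe sets of Cox7a2l gave -0.66 and -0.78. The call held in every fit that left out an array and, at -0.36, with the set term (adjusted p = 0.0425).

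Heart muscle markers moved with the muscle forms. Of 13 cardiac muscle markers, 6 were lower and 0 higher in MACA than in HBSS lungs at 12 h (median -0.82), among them Pln at -1.35, Myh6 at -1.27 and Sln at -1.08. The summed intensity of the 13 ran from 6156 to 8091 in the MACA lungs at 12 h, from 10635 to 17727 in HBSS and from 12182 to 16707 in BSA. At 3 h it ran from 7747 to 14854 in MACA, from 7750 to 13409 in HBSS and from 10834 to 15877 in BSA. The lowest MACA and HBSS lungs at 3 h thus lay within the MACA 12 h range. At 3 h, 0 of the 13 were called in MACA against HBSS, and with the set term 0 were called at 12 h. 10 of the 13 were above noise on all arrays, whereas Myl2, the light chain of the ventricle, was above noise on none. The walls of mouse pulmonary veins carry heart muscle. Its part in the fall of Cox6a2, Cox7a1, Cox8b and Cox6b2 was not tested.

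Over the 14 BSA and HBSS lungs, which received no MACA, the log2 of this sum was set against 9 complex IV genes. The permutations moved values freely across agents and times, so differences between those groups enter the p-values. Cox7a1 followed it with Pearson r = 0.88 (permutation p = 1.0e-05, the smallest that 100000 permutations can give, adjusted over the 9 relations 9.0e-05) and Spearman rho = 0.91 (p = 3.0e-05, adjusted 2.7e-04). Cox6a2 had r = 0.71 (permutation p = 0.00401, adjusted 0.0180) and rho = 0.81 (p = 6.1e-04, adjusted 0.00274). Without the 2 arrays farthest from the median, r was 0.83 for Cox7a1 and 0.79 for Cox6a2, and within the high and the low technical set (8 and 6 arrays) it was 0.83 and 0.96 for Cox7a1 and 0.76 and 0.77 for Cox6a2. For Cox8b r was 0.41 (permutation p = 0.140, adjusted 0.372) and rho 0.64 (p = 0.0152, adjusted 0.0456), and without the 2 farthest arrays r was 0.53. Cox6b2 (r = 0.10, adjusted permutation p = 0.944) and Cox7a2l (r = 0.22, adjusted permutation p = 0.686) showed no relation that passed the test. Within the high and the low technical set r was -0.24 and 0.64 for Cox6b2 and 0.005 and 0.29 for Cox7a2l. Cox6a1, Cox6b1, Cox7a2 and Cox8a did not pass either (r from -0.01 to 0.39, adjusted permutation p from 0.372 to 0.966). The sums of fat and skeletal muscle markers were not set against these genes, so whether any relation is particular to heart muscle was not tested.

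Markers of other cell types were read the same way, among them brown fat, which also uses Cox7a1 and Cox8b, and skeletal muscle. 3 of 8 fat markers were lower in MACA than HBSS at 12 h (Car3 at -3.65, Fabp4 at -1.95 and Cidea at -0.75), and their summed intensity ran from 167 to 287 against 1030 to 2899. The brown fat gene Ucp1 was at 0 on all 21 arrays, and Lep was above noise on none. 0 of 8 skeletal muscle markers were called, and Tnnc2, of fast fibres, was at 0 on all 21 arrays. Their summed intensity at 12 h nevertheless ran lower in MACA, from 304 to 459, against 494 to 831 in HBSS and 507 to 872 in BSA. Only 2 of the 8 were above noise on all arrays. Neutrophil markers were higher in MACA lungs at both times (5 of 9 at 3 h and 4 of 9 at 12 h), macrophage markers were higher for 4 of 9 and lower for 1 at 12 h, and 3 of 9 fibroblast and smooth muscle markers (Lum, Dcn and Pdgfra) were lower at 12 h. At 3 h 1 of 9 macrophage and 1 of 8 fat markers were higher. At 12 h 2 of 4 B cell and 3 of 9 alveolar epithelial markers were higher (1 of 9 alveolar with median scaling). T cell (6), airway epithelial (6), endothelial (8) and erythroid (3) markers gave 0 calls at both times. Their part in the values of the members was not tested.

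In the ATP synthase, Atp5o and Atp5g2 rose at 12 h. Atp5o read 11.27, 11.23 and 11.18 in MACA against 10.86, 10.69, 11.02 and 10.96 in HBSS, a difference of 0.34 ± 0.09 (adjusted p = 0.0105, and 0.184 with the set term). Atp5g2, 1 of 3 genes for the proton-carrying ring, read 11.52, 11.65 and 11.60 against 11.41, 11.13, 11.23 and 11.34, a difference of 0.31 ± 0.07 (adjusted p = 0.00614, and 0.04996 with the set term). Neither gene overlapped between the groups, and both calls held in every fit that left out an array. The other ring genes, Atp5g1 and Atp5g3, which encode the same mature protein, differed by 0.23 (95% interval -0.02 to 0.48) and 0.05 (-0.07 to 0.17). Atp5pb, of the peripheral stalk, read 11.69, 11.51 and 11.77 against 11.93, 12.00, 11.99 and 12.05, a difference of -0.34 ± 0.08 (adjusted p = 0.00734, and 0.0572 without MACA 12 h replicate 2). The Atp5pb call was also lost with the set term (-0.22, adjusted p = 0.163) and with median scaling (0.105), and its other probe set gave 0.18. The catalytic head subunits Atp5a1 and Atp5b differed by 0.11 (-0.04 to 0.27) and 0.04 (-0.14 to 0.22) and were not called.

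Between lungs given BSA, the unrelated protein, and HBSS lungs few genes were called, among the members and among all genes. At 3 h, 0 of 87 were called, against 0.178% of all genes (0.161% higher and 0.0161% lower). At an unadjusted p under 0.05 limma gave 2 higher and 11 lower at that time, against 655 higher and 663 lower of all 12393 genes, and the median difference was -0.09, against -0.01. At 12 h, 2 were higher and 1 lower (3.45%), against 1.35% (0.557% higher and 0.791% lower), and the median difference was 0.10 with 71 of 87 positive, against 0.03 with 6979 of 12393 over all genes. These comparisons use the same HBSS arrays as those of MACA.

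Ndufb7 read 11.43, 11.46, 11.48 and 11.62 in BSA lungs at 12 h, all above the HBSS values, a difference of 0.40 ± 0.08 (SE, n = 4 and 4, adjusted p = 0.0289). Ndufa13, a complex I subunit also known as GRIM-19, read 11.73, 11.81, 11.87 and 11.97 against 11.66, 11.38, 11.53 and 11.56, a difference of 0.31 ± 0.07 (adjusted p = 0.0305). Atp5pb read 11.41, 11.66, 11.53 and 11.73 against 11.93 to 12.05, a difference of -0.41 ± 0.07 (adjusted p = 0.0189). The groups did not overlap for the 3 genes, so 2 of the genes called in MACA lungs at 12 h, Ndufb7 and Atp5pb, were also called on the same side of HBSS in BSA lungs. Uncalled differences on the same side are not counted here. Of the 9 genes called higher in MACA than in HBSS lungs at 12 h, only Cox5a was also called higher than in BSA lungs. Leaving out HBSS 12 h replicate 2 or 3 ended each of these calls, BSA 12 h replicate 3 or 4 also ended those of Ndufb7 and Ndufa13, and HBSS 12 h replicate 4 that of Ndufa13 (adjusted p up to 0.110). With median scaling 0 were called, with the set term 14 were higher and 3 lower, and without scaling 0 were higher and 16 lower (median of all genes -0.45). Over all genes median scaling gave 27 higher and 36 lower, the set term 771 and 722, and no scaling 6 and 2053.

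Most of the members called between MACA and BSA lungs at 12 h belonged to complex IV. At 3 h, 0 of 87 were higher and 1 lower (1.15%), against 5.95% of all genes (3.5% higher and 2.45% lower). The gene was Cox7a2, where BSA lungs read 12.38, 12.36 and 12.38, and the difference was -0.25 ± 0.06 (adjusted p = 0.0232), lost without any of 5 of the 7 arrays (up to 0.0799), with the set term (0.0614) and with median scaling (0.0908). Its other probe set gave 0.06. At 12 h, 2 were higher and 7 lower (10.3%), against 9.65% (4.07% higher and 5.58% lower). Of the 9, 7 belonged to complex IV (1 higher and 6 lower of 16, median -0.23), 1 to complex I and 1 to complex III, and 0 of 17 ATP synthase genes were called. Without MACA 12 h replicate 2, 3 of the 87 were called, and 0 in a fit of these 2 groups alone.

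The muscle forms showed their largest differences here. Cox6a2 read 9.51, 9.41, 9.85 and 9.85 in BSA lungs at 12 h, a MACA difference of -1.06 ± 0.20 (adjusted p = 0.00474, and 0.0185 with the set term). Cox8b read 8.03, 8.02, 8.83 and 8.18, a difference of -1.10 ± 0.23 (adjusted p = 0.00736, and 0.0330 with the set term). Cox6b2 read 8.60, 8.37, 8.89 and 8.83, a difference of -0.96 ± 0.15 (adjusted p = 0.00142). Cox7a1 read 7.86, 7.82, 8.26 and 8.45, a difference of -0.94 ± 0.21 (adjusted p = 0.0117, and 0.0513 with the set term). All MACA lungs lay below all BSA lungs for the 4 genes. Without MACA 12 h replicate 2 the adjusted p was 0.0647 for Cox7a1 and 0.0553 for Cox8b, while Cox6a2 and Cox6b2 kept their calls in each fit that left out an array. Within the high technical set, which holds the 3 MACA arrays and BSA replicates 1 and 2, the differences were -0.87 for Cox6a2, -0.78 for Cox6b2, -0.68 for Cox7a1 and -0.86 for Cox8b, and none was called (adjusted p from 0.0513 to 0.154). 7 of 13 cardiac muscle markers were lower in this comparison (median -1.16), and 3 with the set term.

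Cox7a2l read 10.95, 11.12, 11.30 and 11.30 in the BSA lungs, a MACA difference of -0.59 ± 0.11 (adjusted p = 0.00469, 0.0116 with the set term, and -0.46 with 0.0574 within the high set). Cox5a read 11.57, 11.20, 11.44 and 11.27, a difference of 0.32 ± 0.09 (adjusted p = 0.0257, up to 0.126 without any of 4 of the 7 arrays). Ndufb6, of the membrane arm of complex I, was 0.29 higher (adjusted p = 0.0227) with overlapping groups, and Cox4i1 (-0.22, adjusted p = 0.0413) and Uqcrc2 (-0.36, adjusted p = 0.0493) were lower. The calls of these 3 genes were lost without any of 4 to 7 of the 7 arrays, and so were these and that of Cox5a with the set term (adjusted p from 0.0789 to 0.183).

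Between 3 h and 12 h, members called in BSA and MACA lungs were mostly higher at 12 h. In HBSS lungs 5 were higher and 1 lower at 12 h (6.90%), against 7.88% of all genes (4.07% higher and 3.82% lower). In BSA lungs 8 were higher and 0 lower (9.20%), against 5.3% (3.37% higher and 1.93% lower). In MACA lungs 19 were higher and 3 lower (25.3%), against 10.7% (5.59% higher and 5.15% lower). Counts of this kind depend on the number of arrays and on their spread, and the difference between the 3 counts was not tested as such. With median scaling the split was 3 higher and 4 lower in HBSS, 1 and 0 in BSA and 8 and 3 in MACA lungs. Over all genes median scaling gave 335 and 534 in HBSS, 308 and 275 in BSA and 620 and 571 in MACA. Without scaling the members gave 81 and 0 in HBSS (median of all genes 0.72), 0 and 0 in BSA and 0 and 0 in MACA. All genes gave 7627 and 45 in HBSS, 11 and 12 in BSA and 46 and 47 in MACA without scaling. In a fit of the 7 MACA arrays alone 6 were called, and without MACA 12 h replicate 2, 4.

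Complex I carried most of the rises in MACA lungs, with 12 of 34 genes higher and a median of 0.21, against 3 of 17 for the ATP synthase and 3 higher and 3 lower of 16 for complex IV. Ndufa12, an accessory subunit of the matrix arm, read 11.11, 11.16 and 11.21 at 12 h against 10.76, 10.74, 9.94 and 10.15 at 3 h, a rise of 0.76 ± 0.15 (SE, n = 3 and 4, adjusted p = 0.00309). The lowest values were those of replicates 3 and 4, the 2 arrays of the low technical set. The rise was 0.56 with the set term (adjusted p = 0.00587), and within the high set it was 0.41 (adjusted p = 0.00915). The other 3 probe sets of Ndufa12 gave 0.39, 0.79 and -0.14. Ndufb7 rose by 0.41 ± 0.09 (adjusted p = 0.00621) and Ndufa2, of the matrix arm, by 0.33 ± 0.07 (adjusted p = 0.00696), from 10.69, 10.73, 10.63 and 10.66 to 10.89, 11.04 and 11.09. These 3 calls held in every fit that left out an array. The assembly factor Sdhaf4 rose by 0.50 ± 0.13 (adjusted p = 0.0183, and up to 0.0768 without MACA 3 h replicate 3 or MACA 12 h replicate 1 or 2), which brought it to 9.31, 9.22 and 9.02. Ndufc1 rose by 0.37 ± 0.10 (adjusted p = 0.0220) and Atp5k, a dimerization subunit of the ATP synthase, by 0.42 ± 0.13 (adjusted p = 0.0426). Atp5o rose by 0.36 ± 0.09 (adjusted p = 0.0133) and Ndufs8 by 0.38 ± 0.11 (adjusted p = 0.0334).

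The 3 falls in MACA lungs were Cox6a2 at -0.73 ± 0.20 (adjusted p = 0.0294), Cox6b2 at -0.70 ± 0.15 (adjusted p = 0.00770) and Cox7a2l at -0.47 ± 0.11 (adjusted p = 0.0135). Without MACA 12 h replicate 2 the calls of Atp5o, Ndufs8, Cox6a2, Cox6b2 and Cox7a2l were lost (highest adjusted p of these genes in any such fit 0.184), and Ndufc1 and Atp5k lost theirs without 3 and 5 of the 7 arrays. With the set term Cox6a2 lost its call (adjusted p = 0.104), and within the high technical set 5 of the 22 calls remained.

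In BSA lungs, 5 of 34 complex I genes rose with time. Ndufa9, which holds the matrix arm to the membrane arm, rose by 0.33 ± 0.06 (adjusted p = 0.00761), from 10.40, 10.20 and 10.32 to 10.57, 10.49, 10.73 and 10.76. The other rises were Sdhaf4 at 0.47, Atp5g1 at 0.45, Ndufs7 at 0.44, Ndufs8 at 0.44, Atp5d at 0.38, Ndufb7 at 0.35 and Ndufa13 at 0.27 (adjusted p from 0.0280 to 0.0481). Leaving out BSA 3 h replicate 2 ended all 8 calls, and with the set term or median scaling only that of Ndufa9 remained.

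In HBSS lungs the peripheral stalk gene Atp5pb rose by 0.40 ± 0.08 (adjusted p = 0.00711), from 11.57, 11.63 and 11.57 to 11.93, 12.00, 11.99 and 12.05, the groups lying far apart. Ndufc1 rose by 0.42, Ndufaf7 by 0.39, Uqcrc2 by 0.37 and Sdhc by 0.29 (adjusted p from 0.0167 to 0.0492). Atp5o fell by 0.32 (adjusted p = 0.0317). Uqcrc2 lost its call in all 7 fits that left out an array, Sdhc and Atp5o in 4, Ndufaf7 in 2 and Ndufc1 in 1. Another probe set of Ndufc1 gave the opposite sign. The Atp5pb call held in every fit that left out an array, and was lost with median scaling (0.192) and with the set term (0.0887). The 4 HBSS arrays at 12 h are all in the low technical set and the 3 HBSS arrays at 3 h all in the high set, so time and set cannot be told apart in this comparison alone. With the set term 2 members were higher and 5 lower, against 637 and 585 of all genes, and 0 of the 6 calls remained.

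The MACA difference from HBSS itself changed between the times for 7 genes, all upward (8.05% of the members), against 3.91% of all genes (2.07% upward and 1.84% downward). Ndufb7 changed by 0.69 ± 0.12 (SE, adjusted p = 0.00973), from -0.21 at 3 h to 0.48 at 12 h. Atp5o changed by 0.68 ± 0.12 (adjusted p = 0.00973), from -0.34 to 0.34. In HBSS lungs the difference of 12 h from 3 h was -0.28 for Ndufb7 (adjusted p = 0.0546, not called) and -0.32 for Atp5o (adjusted p = 0.0317, and 0.254 with the set term). Ndufs8 changed by 0.63 (adjusted p = 0.0337), Cox5a by 0.57 (0.0191), Cox5b by 0.51 (0.0402), Atp5g2 by 0.45 (0.0221) and Cox7a2 by 0.33 (0.0416). The Ndufb7 and Atp5o calls held in each fit that left out an array, and with the set term their adjusted p was 0.0490 and 0.0971. With that term the other 5 genes lost their calls, with adjusted p of 0.0577 for Ndufs8, 0.119 for Cox5a, 0.108 for Cox5b, 0.108 for Atp5g2 and 0.473 for Cox7a2. Leaving out HBSS 3 h replicate 3 or MACA 12 h replicate 2 ended the calls of these 5, and the other probe set of Cox7a2 gave -0.24. Without HBSS 3 h replicate 3, 2 of the 87 were called. Without scaling the change was 0 upward and 14 downward over the members, against 22 and 2445 of all genes, with the median of all genes at -0.66.

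**Figure D4:**
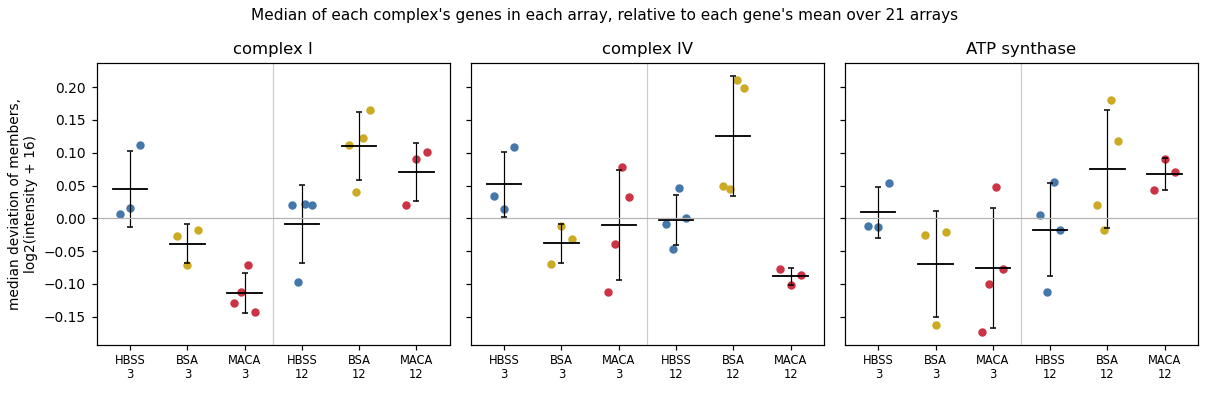
Median deviation of the genes of each complex from their own mean over all arrays, on the log2(intensity + 16) scale, 1 point per array by agent and time in hours. For the ATP synthase the MACA arrays run from -0.17 to 0.05 at 3 h and from 0.04 to 0.09 at 12 h.

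Genes outside the prefixes were read in MACA against HBSS lungs, where 4.84% of all genes were higher and 3.28% lower at 3 h, and 10.2% higher and 10.1% lower at 12 h. No list was tested against these shares. The single genes of the lists, here and below, are given without the set term. At 12 h the MACA and HBSS arrays lie wholly in opposite technical sets. Of the 18 members called at that time, 8 kept their call with the set term. Of 9 further subunits and electron carriers, 1 was higher at 12 h (Cox17, the copper carrier to complex IV, at 0.33) and 0 were called at 3 h. Of 24 further assembly factors, 3 were higher at 12 h (Uqcc2 at 0.61, Foxred1 at 0.34 and Ecsit at 0.28) and 1 lower (Oxa1l, the insertase of the inner membrane, at -0.37), and 0 were called at 3 h. Of 74 mitochondrial ribosomal proteins, which translate the mitochondrially encoded subunits, 1 was higher and 6 lower at 3 h and 14 were higher and 6 lower at 12 h.

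Of 16 genes of the tricarboxylic acid cycle, Suclg2 was lower at 3 h (-0.36) and Pdhb at 12 h (-0.26). Of 12 fatty acid oxidation genes, Hadh was lower at 3 h (-0.64), and Acadm (-0.45) and Cpt1a (-0.38), the gate of fatty acid entry, were lower at 12 h. Of 17 glycolysis genes, Hk2 was higher (0.79) and Aldoc lower (-0.51) at 3 h, and at 12 h Slc16a3 (0.87), a lactate exporter, and Pgam1 (0.32) were higher and Aldoc (-0.56) and Pfkm (-0.43) lower.

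Of 16 mitochondrial biogenesis factors, Myc was higher (1.99) and Ppargc1a, the coactivator PGC-1α, lower (-0.68) at 3 h. At 12 h Pprc1 was higher (0.77), and Gabpa (-0.65), Polg2 (-0.49) and Ssbp1 (-0.30) were lower. Of 10 carriers, uncouplers and pores, Ckmt2 (-1.04), the mitochondrial creatine kinase of striated muscle, Ucp3 (-0.83) and Vdac3 (-0.34) were lower at 12 h, and 0 were called at 3 h. Of 9 hypoxia genes, Adm was higher at both times (2.16 and 0.73), Egln3 was higher (0.75) and Ddit4 (-0.99) and Bnip3 (-0.58) were lower at 12 h. Of 7 mitochondrial antioxidant enzymes, Sod2 was higher at both times (0.77 and 0.93), and at 12 h Txn2 (0.41) and Prdx3 (0.37) were higher and Cat (-0.62) was lower.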

How the data were processed

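RNA from 21 mouse left lungs was labelled as biotinylated cRNA and hybridised to 1 oligonucleotide array each, per the labels' protocols. The deposited values are linear intensities per probe set, with values below 0, and no scaling between arrays is visible in them. The sources used here give no scanner software and no summary or scaling method, and arrays have no read depth, so their number limits the precision. 64 control probe sets were left out of 22690. Of the other 22626 probe sets, 20380 carried 1 symbol in the platform annotation, 691 several and 1555 none, and those with 1 symbol gave 12393 genes.

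Intensities were quantile normalised, floored at 0 and taken as log2(intensity + 16), and the brightest probe set stood for a gene. limma 3.58.1 in R 4.3.3 fitted the 6 group means (15 residual degrees of freedom), with Benjamini-Hochberg adjustment over all genes in each of 10 comparisons and a threshold of 0.05, 2-sided. The scripts were tested on simulated data. Noise is the 95th percentile of the size of values below 0 (intensity 40.9). Figures used matplotlib 3.10.9 in Python 3.11.15.

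The members, gene lists and tests were chosen with earlier results of these data known. Called members were named in full where 8 or fewer passed, otherwise the 8 largest without overlap, beside the tissue forms and catalytic subunits whatever their values, and up to 4 called genes per list. Genes named beyond this rule were chosen after their values were seen, as were the comparison of probe sets and the subsets of the marker correlation. Alternatives were median or no scaling, a pseudocount of 64, a filter on dim genes (above noise on at least 3 arrays), the mean of all probe sets, only the compared groups, a term for the technical set, 1 technical set alone, the replicate number as a block, and each array left out. No 2 arrays held identical values.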

Additional observations from a re-analysis of the deposited data

Results flagged for a closer look

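In HBSS lungs at 12 h, 1 array stood apart from the other 3 in 2 genes. Sdhaf4 read 9.16 in replicate 2, against 9.53 to 9.58 in the others, and Ndufs7 read 10.91 in replicate 2, against 11.11 to 11.12. 117 groups of 4 arrays were examined and 2 stood apart, where chance gives about 5%.

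For 7 genes the difference between MACA and HBSS lungs changed between 3 h and 12 h by a test of the change itself (limma, adjusted p under 0.05). The changes on the log2 scale were 0.69 for Ndufb7, 0.68 for Atp5o, 0.63 for Ndufs8, 0.57 for Cox5a, 0.51 for Cox5b, 0.45 for Atp5g2 and 0.33 for Cox7a2. All 7 changes turned negative when no scaling was applied, with the median of all genes at -0.66.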

How the results depend on the processing

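Counts of called members under the alternatives moved in 38 of 87 cases by more than 1.5 times and stayed closer in 49. For MACA against HBSS at 3 h (4 called), no scaling gave 0, the mean of probe sets 7, the compared groups alone 1, the set term 11 and 1 technical set 2. At 12 h (18 called) no scaling gave 60. For BSA against HBSS the set term gave 1 at 3 h (0 called). At 12 h (3 called) no scaling gave 16, median scaling 0, the compared groups alone 0 and the set term 17. For MACA against BSA at 3 h (1 called), no scaling, the compared groups alone, the set term and 1 technical set each gave 0, the filter 2, and median scaling, a pseudocount of 64 and the mean of probe sets each 3. At 12 h (9 called) no scaling gave 3, the set term 4, and the compared groups alone and 1 technical set each 0. For 12 h against 3 h in HBSS lungs (6 called) no scaling gave 81 and the mean of probe sets 3. In BSA lungs (8 called) no scaling, the compared groups alone and 1 technical set each gave 0, and median scaling and the set term each 1. In MACA lungs (22 called) no scaling gave 0, median scaling 11, and the compared groups alone and 1 technical set each 6. For the change (7 called) no scaling gave 14, the mean of probe sets 1 and the set term 2. The cause was not tested. The fits of the compared groups alone and of 1 technical set also used fewer arrays.

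With no scaling, 19 called differences turned sign. For MACA against HBSS at 12 h these were Atp5g2 (-0.35), Atp5o (-0.33), Cox5a (-0.12), Cox5b (-0.25), Ndufa3 (-0.38), Ndufaf4 (-0.20), Ndufb7 (-0.20), Ndufs8 (-0.25) and Sdhd (-0.42). For BSA against HBSS at 12 h they were Ndufa13 (-0.21) and Ndufb7 (-0.16), for HBSS over time Atp5o (0.47), and for the change Atp5g2 (-0.28), Atp5o (-0.068), Cox5a (-0.18), Cox5b (-0.20), Cox7a2 (-0.34), Ndufb7 (-0.068) and Ndufs8 (-0.10). With the mean of probe sets Sdhd turned to -0.12 for MACA against HBSS at 12 h.

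Leaving out 1 array at a time gave 0 to 5 calls for MACA against HBSS at 3 h and 9 to 16 at 12 h, 0 to 0 for BSA against HBSS at 3 h and 0 to 4 at 12 h, and 0 to 3 for MACA against BSA at 3 h and 3 to 11 at 12 h. Over time it gave 2 to 6 in HBSS, 0 to 14 in BSA and 4 to 16 in MACA lungs, and 2 to 11 for the change. Of 78 calls, 16 held in every such fit, 18 with no scaling, 29 with the compared groups alone, 34 with the set term, 44 with median scaling, 44 with the mean of probe sets, 63 with the replicate block, 67 with the filter and 78 with a pseudocount of 64. Within 1 technical set 5 of the 47 calls that could be fitted there held.

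Same-numbered arrays of different groups deviated together (correlation over 0.1) in 17 of 48 pairs, with a median of 0.06. Arrays with other numbers did so in 23 of 135 pairs, with a median of -0.03. 9 of 21 arrays were closest to their own number. Whether the numbers mark pairs of arrays was not tested. With the replicate block 2 members were called for MACA against BSA at 3 h, and the other counts stayed within 1.5 times.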

Other observations

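A mitochondrially encoded transcript is also on the array. ND5, a proton-pumping subunit of complex I made inside the mitochondrion, read 12.06 and 12.08 in MACA 3 h replicates 3 and 4 and 12.17 and 12.29 in BSA 12 h replicates 3 and 4, against 12.53 to 13.02 on the other 17 arrays. These 4 arrays belong to the low technical set, whose other 4 arrays, HBSS at 12 h, read 12.74 to 12.93. ND5 was not called in any of the 10 comparisons.

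Of the 18 members called between MACA and HBSS lungs at 12 h, 11 had further probe sets, 19 in all. The further probe sets gave the same sign in 15 cases and the opposite sign in 4, which belonged to Atp5pb, Cox5a, Ndufs8 and Sdhd.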
